A study of Mus musculus with 6 samples.

Results

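The genes of cholesterol and fatty acid synthesis were followed in T helper 9 (Th9) cells, a CD4 T cell state named for the cytokine IL-9, with and without the ubiquitin ligase CBL-B. The group was a list of 28 gene symbols naming enzymes and regulators of these pathways, and all 28 were found among the 17369 genes of the table. The study profiled single mouse cells by droplet sequencing near the 3′ end of transcripts. Naive CD4 T cells from spleen had been cultured for 48 h with IL-4 (20 ng/ml), human TGFβ (3 ng/ml) and anti-IFNγ (20 µg/ml), then purified with CD4 beads. The groups were 3 Cblb-/- libraries, called D, E and F here, with 14503 cells, and 3 wild-type (WT) libraries, called A, B and C, with 12755 cells. The labels say neither how the Cblb deletion was made nor whether samples of a genotype came from separate mice or cultures, so the p-values reflect only how far the 6 libraries spread, and that spread may be technical.

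Cholesterol is built from acetyl-CoA, first through mevalonate to isoprenoid units and squalene, then by closing squalene into a sterol ring that is trimmed and rearranged step by step. Fatty acids start from the same acetyl-CoA, which is carboxylated, polymerised to palmitate, elongated and desaturated. Both pathways are switched on by SREBP transcription factors when membranes are low in sterol, and an activated T cell relies on them to build membrane before it divides.

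Median raw depth per cell lay between 35573 and 39628 unique molecular identifiers (UMIs) in the Cblb-/- libraries and between 37550.5 and 38753 in the WT libraries, with library E the shallowest. Library E stood apart from D and F, being the lowest Cblb-/- library for 25 of the 28 genes, so each called gene is also given without it. Each level below is a gene's sum of the authors' depth-corrected counts over a library's cells, in parts per 1000000 of the library's sum (ppm). Cblb was at 18.42, 15.02 and 17.99 ppm in D, E and F, against 32.57, 31.06 and 30.95 ppm in A, B and C, so its 3′ reads were fewer but not gone, and whether they lie outside the deleted part is not stated. The CD4 T cell markers summed to 1418 to 1468 ppm in Cblb-/- and 1494 to 1544 ppm in WT libraries. Myeloid, mast cell, NK cell and erythroid lists each summed to under 2 ppm in every library, and the B cell list to at most 9.04 ppm in Cblb-/- and 3.51 ppm in WT libraries. Of 27182 distinct cell barcodes, 76 occurred in more than 1 library.

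In Cblb-/- cells 6 members of the list were lower and none was higher. They were Dhcr7, Ebp, Nsdhl, Sc5d and Cyp51, which act on the sterol ring after squalene, and Pmvk, a kinase of the mevalonate steps. By the fitted difference on log2(ppm + 1), they were 17.2% to 34.9% below WT. The calls are those of limma on log2(ppm + 1) with Benjamini-Hochberg adjustment over 8475 genes. Of all these genes 13.4% were called lower and 11% higher, beside 21.4% of the members called lower and 0 of 28 higher. At an unadjusted p under 0.05 there were 9 members, none of them higher, where 39.2% of all tested genes passed. The median difference (Cblb-/- minus WT) was -0.09 over the members and -0.01 over all tested genes. Without library A, or without library C, the called members were 2, Dhcr7 and Ebp, and the limma adjusted p of the other 4 was 0.0627 (Cyp51 without A) or more. Calls were fewer over all tested genes too, with 4.94% called lower without A and 4.59% without C.

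The 300 bases around the start sites of the called genes are shown as a description, and shared control of these genes was not tested. Where a gene had several start sites, the most upstream was taken, for members and other genes alike. RefSeq on GRCm38.p6 gave promoters, 250 bases before the start to 50 after it, for 22 members. Those of the 6 called members are, on the strand of the gene, chr7:143822917-143823216 (Dhcr7, plus strand), chrX:8193463-8193762 (Ebp, minus), chr5:4104648-4104947 (Cyp51, minus), chrX:72918271-72918570 (Nsdhl, plus), chr9:42264251-42264550 (Sc5d, minus) and chr3:89454291-89454590 (Pmvk, plus). Capitals mark the CCAAT box, read as CCAAT or ATTGG, which is bound by NF-Y, a known partner of SREBP.
Dhcr7: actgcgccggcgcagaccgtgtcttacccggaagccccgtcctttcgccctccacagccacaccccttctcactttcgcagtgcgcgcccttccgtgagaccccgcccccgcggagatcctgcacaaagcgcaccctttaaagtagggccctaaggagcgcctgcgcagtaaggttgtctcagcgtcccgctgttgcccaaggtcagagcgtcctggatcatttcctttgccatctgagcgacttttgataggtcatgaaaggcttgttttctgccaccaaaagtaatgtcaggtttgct
Ebp: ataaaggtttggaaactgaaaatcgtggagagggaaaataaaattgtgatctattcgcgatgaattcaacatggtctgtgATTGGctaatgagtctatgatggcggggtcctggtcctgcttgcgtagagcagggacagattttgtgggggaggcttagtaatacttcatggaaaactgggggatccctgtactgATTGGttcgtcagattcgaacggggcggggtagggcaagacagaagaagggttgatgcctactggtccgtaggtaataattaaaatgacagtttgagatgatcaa
Cyp51: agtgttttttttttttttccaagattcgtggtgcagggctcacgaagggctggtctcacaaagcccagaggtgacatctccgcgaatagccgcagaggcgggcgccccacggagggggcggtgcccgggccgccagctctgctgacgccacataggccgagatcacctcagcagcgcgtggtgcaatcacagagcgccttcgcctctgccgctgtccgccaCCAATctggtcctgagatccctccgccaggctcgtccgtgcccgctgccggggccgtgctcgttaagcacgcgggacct
Nsdhl: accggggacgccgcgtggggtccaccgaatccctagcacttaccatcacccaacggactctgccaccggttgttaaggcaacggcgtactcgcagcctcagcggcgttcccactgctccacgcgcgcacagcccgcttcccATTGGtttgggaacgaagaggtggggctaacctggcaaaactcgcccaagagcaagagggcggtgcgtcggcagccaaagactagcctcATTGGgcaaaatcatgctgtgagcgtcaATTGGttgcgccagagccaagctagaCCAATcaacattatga
Sc5d: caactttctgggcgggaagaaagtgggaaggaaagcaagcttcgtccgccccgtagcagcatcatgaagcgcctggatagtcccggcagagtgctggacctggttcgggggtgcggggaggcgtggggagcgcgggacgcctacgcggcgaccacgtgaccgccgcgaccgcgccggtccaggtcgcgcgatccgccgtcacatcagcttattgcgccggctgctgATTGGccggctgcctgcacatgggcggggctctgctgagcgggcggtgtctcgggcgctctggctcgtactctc
Pmvk: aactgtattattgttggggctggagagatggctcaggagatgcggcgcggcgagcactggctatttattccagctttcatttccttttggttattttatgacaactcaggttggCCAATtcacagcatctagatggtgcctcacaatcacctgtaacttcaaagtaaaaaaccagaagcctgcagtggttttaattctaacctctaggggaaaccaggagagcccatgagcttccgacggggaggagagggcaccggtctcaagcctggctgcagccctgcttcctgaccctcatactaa

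The CCAAT letters occur in 5 of these 6 windows and are missing from that of Dhcr7. Over the 22 member promoters, 17 held CCAAT on either strand (77.3%), against 39.8% of 6758 promoters of tested genes. Most of the members not called held it too. The form TCACNCCAC of the sterol regulatory element, searched on both strands, was in 1 member window, that of Hmgcs1, and in 0.991% of the promoters of tested genes. The GC box GGGCGG was in 77.3% of member windows and 68.3% of promoters of tested genes, and the E-box CACGTG in 18.2% and 11.02%. No CCAAT match shared a base with another motif searched. A match describes letters only, and binding was not measured.

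Dhcr7, which makes cholesterol from its last precursor, changed most. It was at 16.7, 13.3 and 15.3 ppm in D, E and F, against 23.2, 22.7 and 25.2 ppm in A, B and C. Every Cblb-/- library lay below every WT library, with a wide gap between them. The fitted difference was -0.62 ± 0.08 (SE, log2 scale, n = 3 each) with an adjusted p of 0.0029 in limma. The gene lies on the plus strand of chr7:143823145-143848410 (mm10, GENCODE M21), with no other annotated gene across it.

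Ebp encodes the sterol isomerase that moves a double bond in the ring. Its level was 64.3, 66.7 and 72.4 ppm in D, E and F, against 89.6, 83.2 and 86.9 ppm in A, B and C. The groups did not overlap, and here library E was not the lowest of the Cblb-/- libraries. The difference was -0.35 ± 0.05 (SE, n = 3 each), with an adjusted p of 0.0054 in limma. Ebp is on the X chromosome, minus strand, chrX:8185329-8193512.

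Nsdhl, a dehydrogenase that works with Msmo1 and Hsd17b7 to strip methyl groups from the ring, was at 22.5, 18.8 and 22.8 ppm in D, E and F. It was at 27.9, 26.2 and 28.7 ppm in A, B and C. Again all Cblb-/- values lay below all WT values. Its difference was -0.36 ± 0.08 (SE, n = 3 each; limma adjusted p 0.0158). It lies on the X chromosome at chrX:72918557-72958514, plus strand.

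Cyp51, the demethylase that takes the first methyl group off lanosterol, was at 146, 130 and 139 ppm in D, E and F, against 172, 157 and 178 ppm in A, B and C. The lowest WT library, B, was above the highest Cblb-/- library, D. The difference was -0.29 ± 0.06 (SE, n = 3 each) and the limma adjusted p 0.0147. At chr5:4081145-4104746 on the minus strand, the 3′ end of Cyp51 overlaps Akap9 on the other strand, and whether counting used strand is not given in the sources used here.

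Sc5d, the desaturase that makes the substrate of Dhcr7, was at 47.3, 42.4 and 45.2 ppm in D, E and F, against 55.0, 51.1 and 57.4 ppm in A, B and C. Pmvk, phosphomevalonate kinase, was at 74.0, 63.0 and 76.3 ppm in D, E and F, against 91.6, 80.3 and 90.4 ppm in A, B and C. Neither gene's groups overlapped. The differences were -0.27 ± 0.06 for Sc5d (SE, n = 3 each; limma adjusted p 0.0160) and -0.30 ± 0.08 for Pmvk (limma adjusted p 0.0340). In cells under the median mitochondrial share both missed the threshold, with limma adjusted p of 0.0520 for Sc5d and 0.0554 for Pmvk. Pmvk also missed it without library D (0.0537), with library quality weights (0.0592), with no minimum level (0.0566) and without the cells highest in hypoxia genes (0.0531). Sc5d is at chr9:42251595-42264256 on the minus strand and Pmvk at chr3:89454541-89469013 on the plus strand.

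**Figure D1:**
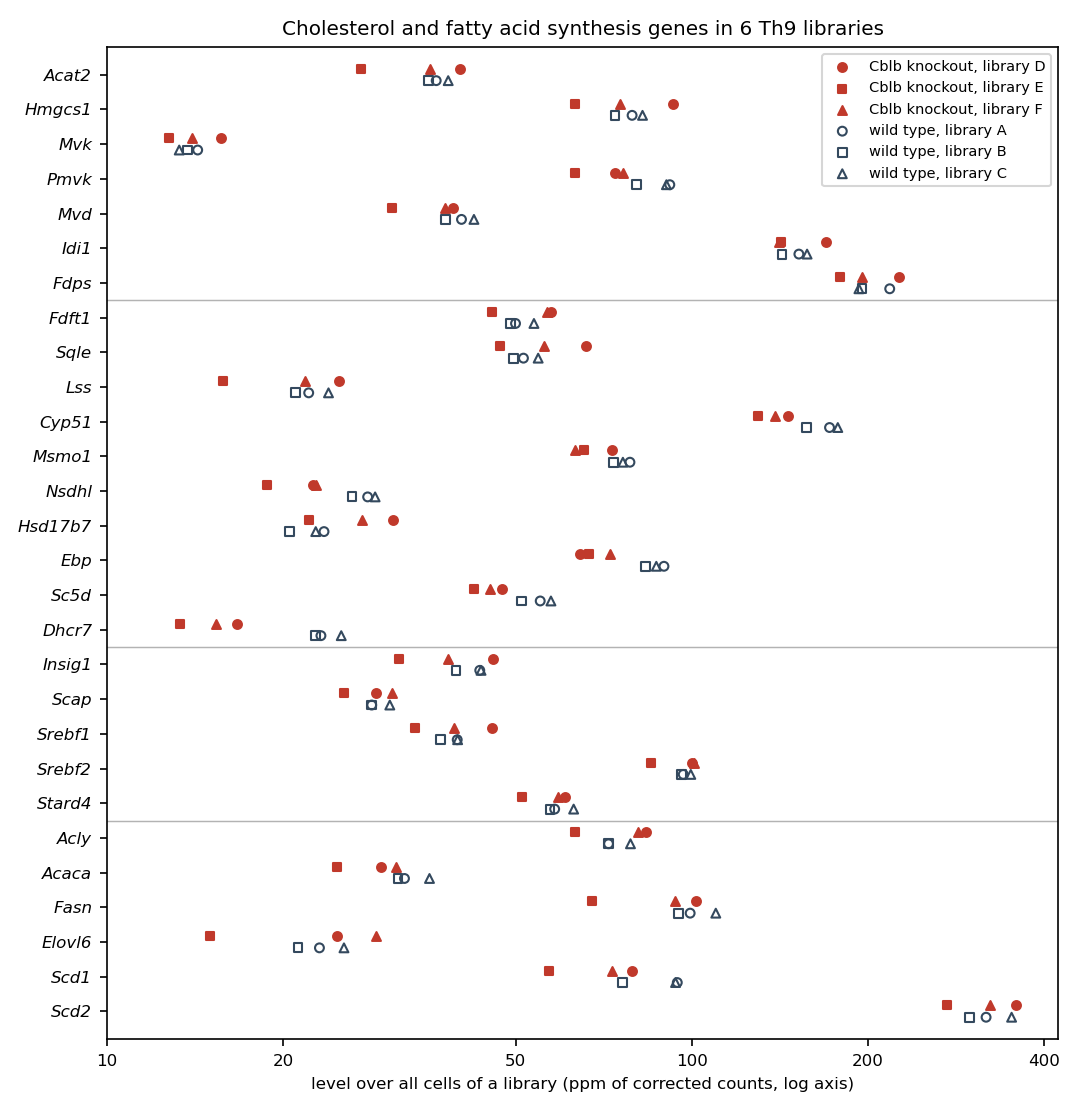
Level of each of the 28 genes in each library (ppm, log axis), with Cblb-/- libraries as filled red symbols above WT libraries as open symbols, and lines between the role groups. For Dhcr7, Ebp, Nsdhl, Cyp51, Sc5d and Pmvk the red symbols lie left of all open ones, and the red square (library E) is the lowest Cblb-/- library for 25 of the 28 genes.

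Among the 7 genes of the mevalonate steps, Pmvk was the 1 called, and the median difference was -0.04. Hmgcs1, which makes HMG-CoA from acetoacetyl-CoA, was at 92.7, 63.1 and 75.2 ppm in D, E and F, against 79.0, 73.9 and 82.3 ppm in A, B and C. Its Cblb-/- values spread on both sides of the WT values. The difference was -0.04, with a 95% interval of -0.33 to 0.24. Fdps, which joins isoprenoid units into farnesyl diphosphate, differed by -0.02 (-0.22 to 0.18), and Idi1, the isomerase of those units, by -0.004 (-0.18 to 0.17). Mvk, the kinase ahead of Pmvk, had a difference of 0.03 (-0.15 to 0.21). Mvd, the decarboxylase after Pmvk, had -0.17 (-0.38 to 0.04), and Acat2, the thiolase at the start of the pathway, -0.11 (-0.40 to 0.17). At their 3′ ends Fdps overlaps Gm43738 on the same strand, and Mvd overlaps Gm20388 on the other strand.

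Of the 10 genes from squalene to cholesterol, 5 were called lower and the median difference was -0.23. Their summed level was 549, 467 and 519 ppm in D, E and F, against 593, 554 and 607 ppm in A, B and C. The sums did not overlap, although D came close to B. The first 3 enzymes of this stretch did not pass the test. Fdft1, squalene synthase, differed by 0.05 (95% interval -0.15 to 0.26), Sqle, squalene epoxidase, by 0.10 (-0.15 to 0.36), and Lss, which closes the ring, by -0.12 (-0.45 to 0.22). Fdft1 overlaps Ctsb at its 3′ end on the other strand, and Lss overlaps the unnamed gene 4930483K19Rik there.

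Of the genes that act with Nsdhl, Msmo1 had a negative difference and Hsd17b7 a positive one, and neither passed the test. Msmo1, the methyl oxidase, was at 72.9, 65.3 and 63.2 ppm in D, E and F, against 78.3, 73.4 and 76.2 ppm in A, B and C, with no overlap but a limma adjusted p of 0.0635. Hsd17b7, the ketoreductase that completes the same removal, was at 30.8, 22.2 and 27.3 ppm in D, E and F, against 23.5, 20.5 and 22.8 ppm in A, B and C. Its level in E lay within the WT range, while D and F lay above it. The Hsd17b7 difference was 0.25 ± 0.11 (SE, n = 3 each; limma adjusted p 0.144). Without library E it was 0.37 and passed the test (limma adjusted p 0.0093), as did Fdft1 at 0.16 (adjusted p 0.0408).

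**Figure D2:**
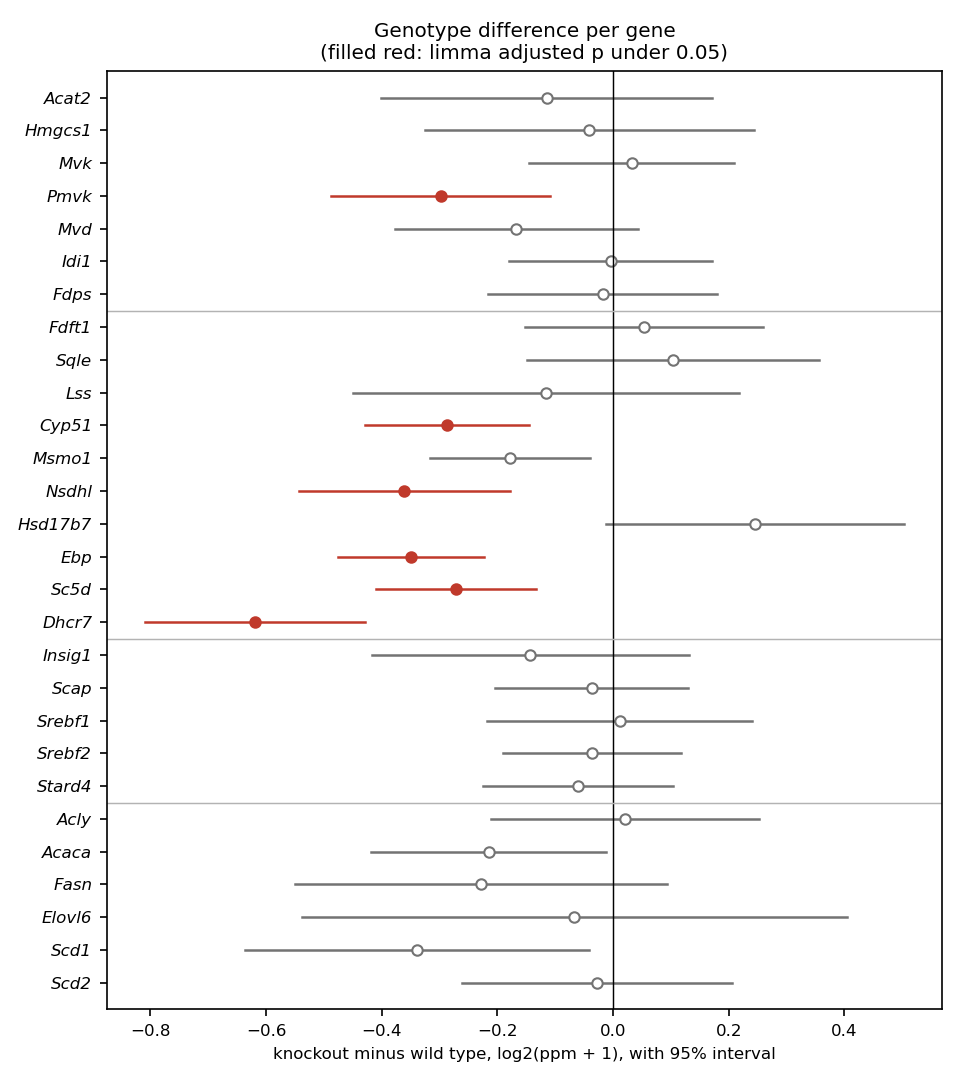
Cblb-/- minus WT difference in log2(ppm + 1) for each gene with its 95% interval, grouped by role from the mevalonate steps at the top to fatty acid synthesis at the bottom. The 6 filled red points are the genes called lower, from -0.27 for Sc5d to -0.62 for Dhcr7, and 5 of them stand in the squalene and sterol ring group.

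The regulators were not called in either direction, and none passed at an unadjusted p under 0.05. Srebf2, which encodes the SREBP that drives sterol synthesis, was at 99.8, 85.0 and 101 ppm in D, E and F, against 96.6, 96.0 and 99.5 ppm in A, B and C. D and F were above all WT libraries and E below them. The difference was -0.04, with a 95% interval of -0.19 to 0.12. Srebf1, the gene of the lipogenic SREBP, differed by 0.01 (-0.22 to 0.24) and overlaps Rai1 at its 3′ end. Scap, the escort that carries SREBP out of the endoplasmic reticulum, differed by -0.04 (-0.20 to 0.13). Insig1, which holds Scap back when sterol is plentiful, had -0.14 (-0.42 to 0.13), and Stard4, a carrier that moves cholesterol between membranes, -0.06 (-0.23 to 0.10).

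No gene of fatty acid synthesis was called, while 2 of the 6 had an unadjusted p under 0.05 (Scd1 and Acaca). Scd1, which puts the double bond into stearate, was at 79.0, 56.9 and 73.1 ppm in D, E and F, against 94.4, 76.0 and 93.7 ppm in A, B and C. D was above B, so the groups overlapped. The difference was -0.34 ± 0.13 (SE, n = 3 each; limma adjusted p 0.0910). Acaca, which makes malonyl-CoA, was at 29.4, 24.8 and 31.2 ppm in D, E and F, against 32.3, 31.5 and 35.6 ppm in A, B and C. These values did not overlap, with F just under B. The Acaca difference was -0.22 (limma adjusted p 0.112). Fasn, fatty acid synthase, differed by -0.23, with an interval of -0.55 to 0.09, and by -0.05 without library E. Acly, which supplies cytosolic acetyl-CoA, Scd2, a second desaturase, and Elovl6, the palmitate elongase, differed by 0.02, -0.03 and -0.07. The interval of Elovl6 was the widest of the 28 genes, -0.54 to 0.40.

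**Figure D3:**
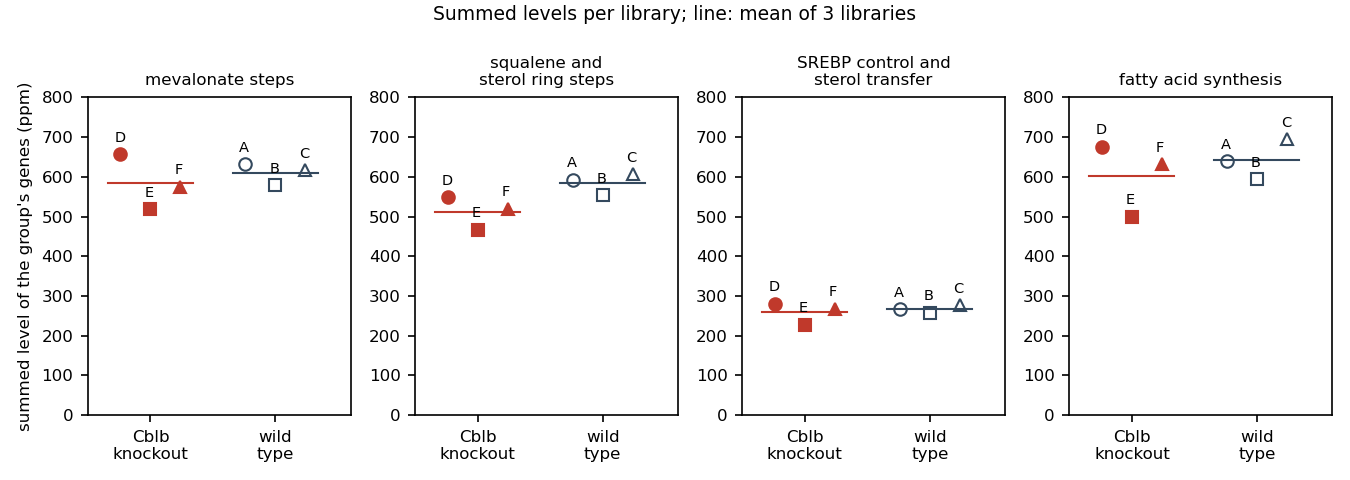
Summed level of each role group in each library (ppm), with Cblb-/- libraries at the left, WT libraries at the right and a line at each mean. The squalene and sterol ring sums do not overlap between genotypes (467 to 549 ppm in Cblb-/-, 554 to 607 ppm in WT), and the sums of the other role groups do.

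Counted over the list, 8 members had all Cblb-/- libraries below all WT libraries (28.6%), where 25.6% of all tested genes did, and 0 had them all above, where 19.7% of tested genes did. In 22 of 28 members the fitted difference was negative (78.6%), against 53.5% of tested genes. Library E was the lowest Cblb-/- library for 25 members, and negative differences were not counted without it. Hmgcs1, Idi1, Fdps, Lss, Acat2, Scap, Srebf2, Scd2, Elovl6 and Stard4, negative here, were each positive in a fit that left out 1 library. The share of members below all WT libraries was thus near that of all genes.

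The Cblb-/- libraries differed more among themselves than the WT libraries did. Summed over all 28 genes, the level was 2162, 1711 and 1994 ppm in D, E and F, against 2130, 1984 and 2195 ppm in A, B and C. Library E was below every WT library and D and F were within the WT range. E was the lowest Cblb-/- library for 89.3% of the members and 53.8% of all tested genes, and the lowest of all 6 libraries for 24 members. The log2 range across a genotype's libraries had a median of 0.33 in Cblb-/- and 0.14 in WT over the members, against 0.17 in Cblb-/- and 0.08 in WT over all tested genes. Among the WT libraries B was the lowest for 25 members, and for 34.6% of all tested genes.

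E also had the fewest UMIs per cell and the lowest sum of the hypoxia list, 3547 ppm, against 4841 and 5000 ppm in D and F and 4290, 4029 and 4454 ppm in A, B and C. In cells within 20% of the median depth the members summed to 2196, 1701 and 2005 ppm in D, E and F, against 2160, 2024 and 2228 ppm in A, B and C. Without the cells highest in hypoxia genes the sums were 2140, 1707 and 1965 ppm in D, E and F, against 2128, 1979 and 2158 ppm in A, B and C. So the order of the Cblb-/- libraries was the same in those cells. Without library E the called members were the same 6 lower, beside 2 called higher (Hsd17b7 and Fdft1). In that fit 16.4% of all tested genes were called lower and 20.6% higher. The 6 had differences of -0.54 for Dhcr7, -0.34 for Ebp, -0.27 for Nsdhl, -0.24 for Cyp51, -0.23 for Sc5d and -0.21 for Pmvk.

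A sum over cells cannot tell fewer expressing cells from less RNA per cell. The share of cells with a corrected count of at least 1 was set beside it. At low counts per cell this share falls as the mean falls, so it cannot tell them apart either. Dhcr7 was counted in 44.4%, 36.8% and 41.5% of cells in D, E and F, against 54.4%, 53.6% and 56.3% in A, B and C. Shares were lower with no overlap for 5 members (Dhcr7, Nsdhl, Ebp, Sc5d and Pmvk) and higher with no overlap for none. Over all tested genes 19.2% had lower and 17.8% higher shares without overlap. The exact two-sided permutation p was 0.1 for each of the 5, the smallest that 3 against 3 libraries can give, or 0.56 after Benjamini-Hochberg adjustment over the 28 members. Nsdhl was counted in 52.1%, 45.4% and 52.6% of cells in D, E and F, against 57.9%, 55.1% and 59.1% in A, B and C. These shares depend on depth and on free RNA, and no cell type of the table is known to lack these genes, so a background share could not be set.

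The authors' deposited cluster numbers were used to look within like cells. Cluster 0 held 46.6% to 55.1% of Cblb-/- cells and 31.4% to 32.0% of WT cells, and cluster 1 held 17.5% to 31.1% of Cblb-/- cells and 43.1% to 46.1% of WT cells. The summed level of the members was higher in cluster 0 than in cluster 1 in all 6 libraries. Ebp was higher there in 0 of 6 libraries and Dhcr7 in 4. Hsd17b7 differed most between clusters among the sterol genes, with 37.1 ppm in cluster 4 and 19.1 ppm in cluster 1 (means of 6 libraries). Scd1 ran otherwise, with 118 ppm in cluster 2 and 45.3 ppm in cluster 4, and cluster 0 was below cluster 1 in every library. Clusters were made from these same cells, so these levels are a description without a test.

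Within clusters the genotype difference was fitted again. In clusters 0 to 5, each with at least 50 cells in each library, the members called lower were 8, 5, 9, 2, 9 and 6, and none was called higher in any. The share of all tested genes called lower was 12.8%, 9.62%, 11.7%, 3.85%, 7.47% and 4.68% in these clusters, and the share called higher 9.06%, 9.22%, 8.39%, 4.54%, 5.33% and 4.9%. Ebp was called in 6 of 6 clusters, with differences from -0.43 to -0.32. Dhcr7 and Nsdhl were called in 5 and Cyp51, Sc5d and Pmvk in 4. The same 6 genes had negative differences in all 6 clusters. So did Hmgcs1, Mvd, Fdps, Lss, Msmo1, Acat2, Insig1, Acaca, Fasn, Scd1, Elovl6 and Stard4, so this was not particular to the 6. The share of all tested genes negative in every cluster was not counted. Fdft1, Sqle, Lss and Hsd17b7 were called in none, Sqle and Hsd17b7 having a negative difference in 1 cluster each. Without library A the calls lower summed over clusters were 19 and without library C 17, beside 39 with all libraries. How many of all tested genes were called lower in those fits was not counted.

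The most negative difference within a cluster was that of Dhcr7 in cluster 4. There it averaged 12.4 ± 1.76 ppm in Cblb-/- and 24.9 ± 2.15 ppm in WT libraries (SD, n = 3 each), a difference of -0.95 ± 0.13 (SE; limma adjusted p 0.00029). Nsdhl in cluster 4 averaged 20.4 ± 2.94 ppm in Cblb-/- and 33.8 ± 4.77 ppm in WT libraries, a difference of -0.70. Cyp51 there averaged 132 ± 8.79 ppm in Cblb-/- and 195 ± 19.5 ppm in WT libraries, a difference of -0.56. In this cluster the summed members did not overlap, at 1914, 1640 and 1927 ppm in D, E and F, against 2212, 1968 and 2393 ppm in A, B and C. In every other cluster tested the sums overlapped, with D above B (2195 against 2117 ppm in cluster 0). How many of all tested genes had no overlap in cluster 4 was not counted.

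Several members passed within some clusters but not over all cells. Mvd was called lower in 3 clusters, and Msmo1 in clusters 0 (-0.33) and 4 (-0.45). Scd1 was called lower in cluster 2, where it averaged 98.3 ± 9.96 ppm in Cblb-/- and 137 ± 8.49 ppm in WT libraries (SD, n = 3 each), and in cluster 3, at 47.2 ± 6.89 ppm in Cblb-/- and 68.1 ± 6.94 ppm in WT libraries. Cluster 2 was also where Acaca (-0.38), Fasn (-0.35) and Idi1 (-0.22) were called lower, and Acat2 was called in cluster 4 (-0.41). The other 15 members were called in no cluster.

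**Figure D4:**
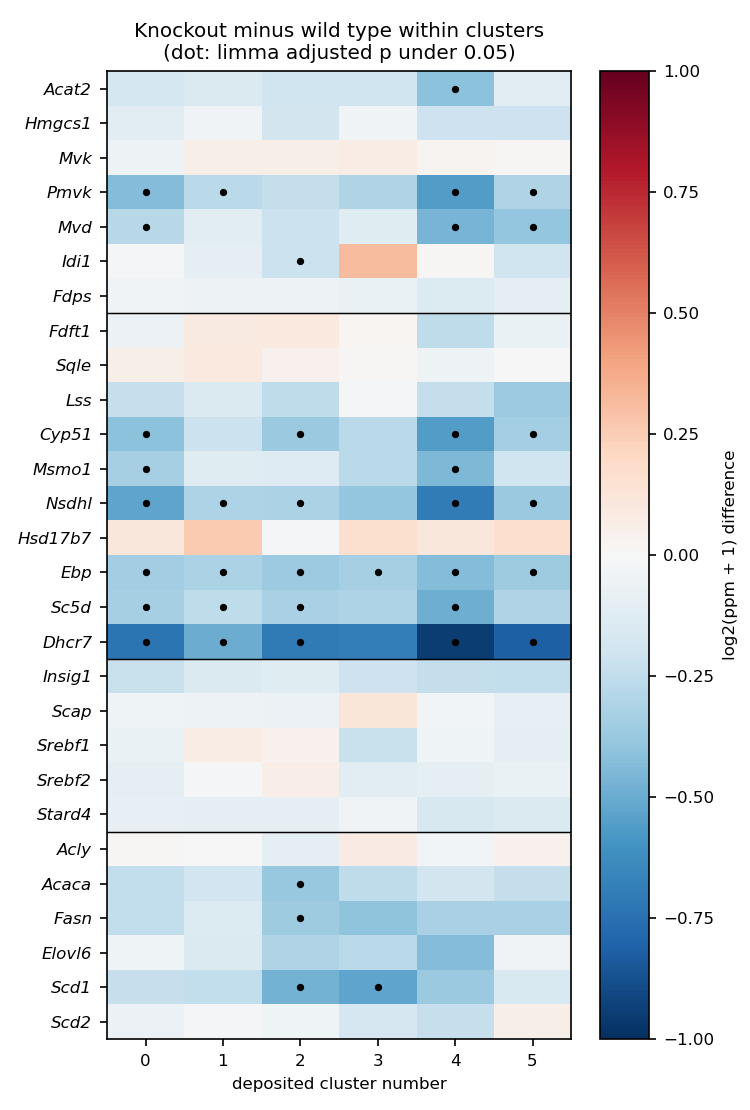
Cblb-/- minus WT difference in log2(ppm + 1) for each gene (rows, by role) within deposited clusters 0 to 5 (columns), blue for lower in Cblb-/-, with a dot where limma's adjusted p is under 0.05. Ebp carries a dot in all 6 columns, Dhcr7 and Nsdhl in 5, and no red cell carries one.

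Whether the genotype difference itself changed between a cluster and the other cells of the same libraries was tested with limma. In clusters 0 to 5 the members that passed were 5, 2, 3, 0, 3 and 0, where 4.04%, 3.06%, 6.7%, 0.0482%, 3.01% and 0.155% of all tested genes passed. For Cyp51 the difference was larger in cluster 4 (-0.56) than in other cells (-0.28) and smaller in cluster 1 (-0.22) than in other cells (-0.39). Msmo1 had -0.33 in cluster 0 and -0.14 in other cells. Calls of a more negative difference in a cluster, summed over clusters, numbered 11 (Pmvk and Cyp51 counting in 2 clusters each), and 2 in cells within 20% of the median depth.

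Members also varied together from cell to cell. Over the cells of a library, Hmgcs1 correlated with the sum of the other members at a mean Pearson r of 0.486 over 6 libraries, Cyp51 at 0.472, Msmo1 at 0.452 and Acat2 at 0.417. The pair with the highest r was Hmgcs1 and Msmo1 (0.380), then Idi1 and Cyp51 (0.332). The median over all 378 pairs was 0.0996. Scap (0.032), Acaca (0.099) and Ebp (0.104) varied little with the rest, so the gene lowered in every cluster was among those least tied to the others. Within role groups the median r was 0.212 for the mevalonate steps, 0.139 for the squalene and sterol ring steps, 0.091 for fatty acid synthesis and 0.036 for the regulators. The sum of members correlated with log2 raw UMIs at 0.029 to 0.126 over the 3423 to 5666 cells of a library. These are descriptions over cells that share a library, and low counts hold r down.

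**Figure D5:**
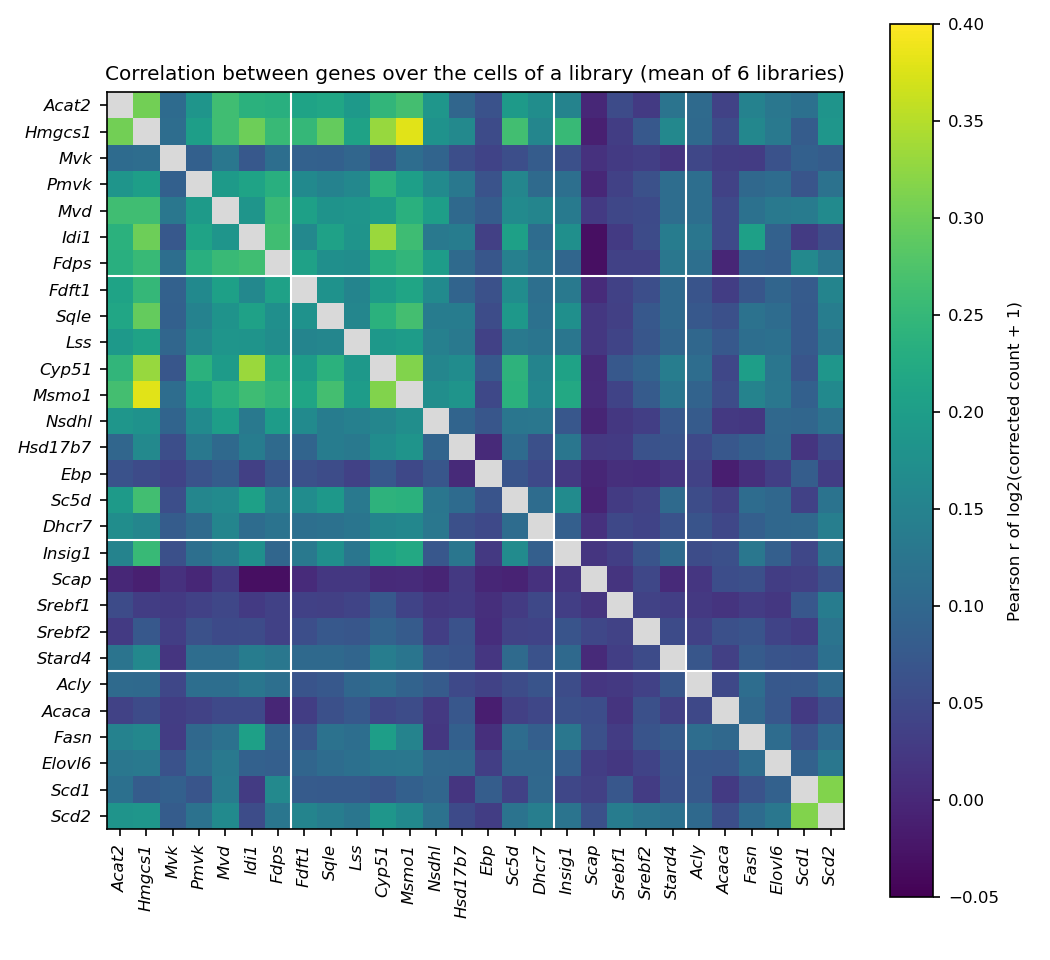
Pearson r between each pair of genes over the cells of a library, as the mean of 6 libraries, on log2(corrected count + 1), with white lines between the role groups. Mevalonate and sterol ring genes form the brighter block at the upper left, up to 0.380 for Hmgcs1 with Msmo1, and the row of Scap is dark throughout.

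Among the other genes with the highest mean r with the summed members over cells were Tuba1a (0.350), Aacs (0.262), Rdh11 (0.246), Pcyt2 (0.234), Lcp1 (0.219), Dbi (0.219) and Pgd (0.210). Of these, Aacs, which activates acetoacetate for lipid synthesis, was lower in Cblb-/- cells (-0.33, limma adjusted p 0.0362), as was Dbi, an acyl-CoA binding protein (-0.22, limma adjusted p 0.0338). Tuba1a, an alpha tubulin, differed by 0.04 (95% interval -0.34 to 0.41), and Pgd, an enzyme of the pentose phosphate pathway that yields NADPH, by -0.10 (-0.33 to 0.13).

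Other lists of the pathway were read in the same fit, in which 13.4% of all tested genes were called lower and 11% higher. Of 12 mevalonate and isoprenoid genes outside the members, 1 was lower and none higher (Acat1, a mitochondrial thiolase, -0.23), with 5 at an unadjusted p under 0.05. Of 5 other sterol genes, Erg28, which tethers sterol enzymes in yeast, was higher at 338, 352 and 332 ppm in D, E and F, against 218, 217 and 183 ppm in A, B and C (0.73, limma adjusted p 0.0010). Erg28 thus ran opposite to the called sterol genes. Of 8 further genes of SREBP control, none was called and none had an unadjusted p under 0.05.

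Genes that bring in, move or export sterol included several that rose. Of 14 tested, Gramd1b (0.92) and Gramd1a (0.22), which carry cholesterol from the plasma membrane to the endoplasmic reticulum, and Npc2 (0.70), which hands cholesterol over in lysosomes, were higher, and Npc1 (-0.18), its partner in the lysosomal membrane, was lower. Npc2 was at 366, 279 and 351 ppm in D, E and F, against 201, 207 and 198 ppm in A, B and C. Of 5 tested genes on the list of the liver X receptor, the sterol sensor that drives export, Arl4c (0.80) and Abca1 (0.39) were higher and none lower. This list holds targets and also Nr1h2, a gene of the receptor itself. Over all tested genes 13.4% were called lower and 11% higher. Abca1, the cholesterol exporter, was at 8.86, 10.3 and 8.48 ppm in D, E and F, against 6.88, 6.66 and 6.77 ppm in A, B and C. For Arl4c and Abca1 all Cblb-/- libraries were above all WT libraries. Abcg1, another cholesterol exporter of the same list, named after its values were seen, was at 8.60, 9.93 and 7.85 ppm in D, E and F, against 10.4, 10.4 and 10.3 ppm in A, B and C, with no overlap (-0.22, limma adjusted p 0.0831, not called).

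Of 18 genes of fatty acid elongation, desaturation and activation, 3 were lower and none higher. Cyb5a, a small haem protein that passes electrons to lipid and sterol desaturases such as those of Scd1 and Sc5d, was lower (-0.45). Cyb5b, a related haem protein, was lower too (-0.32), as was Hsd17b12, a reductase of elongation (-0.20). Cyb5a was at 118, 123 and 117 ppm in D, E and F, against 166, 156 and 169 ppm in A, B and C. Of 14 glycerolipid genes 3 were lower (Ptdss1 -0.25, Agpat3 -0.16 and Agpat5 -0.15). Of 18 fatty acid oxidation genes 2 were higher (Eci2 0.45 and Eci1 0.22), both isomerases for unsaturated chains. Over all tested genes 13.4% were called lower and 11% higher, and the oxidation list was near the latter share.

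Other gene lists were counted in the same fit, where 13.4% of all tested genes were called lower and 11% higher. Of 26 S phase genes 6 were lower, of 24 G2 and M genes 1 was lower and 1 higher, and of 16 hypoxia genes 4 were higher. Of 7 CD4 T cell markers 3 were lower (Cd3e -0.30, Trac -0.24 and Cd4 -0.20). Cd8b1 was higher, the CD8 T cell pair summing to 10.2 to 11.1 ppm in Cblb-/- and 5.677 to 7.204 ppm in WT libraries. The dendritic cell list, with Batf3 as its 1 tested gene, summed to 86.1 to 104 ppm in Cblb-/- and 39.4 to 60.4 ppm in WT libraries. Il9 was higher at 915, 461 and 788 ppm in D, E and F, against 271, 166 and 245 ppm in A, B and C, and library E was lowest of the Cblb-/- libraries there too. In cells below the median for cell cycle genes, 7 members were lower, the 6 and Msmo1, where 12.0% of all tested genes were called lower. The part of the other lists in the result was not tested.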

How the data were processed

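Per the submitters' processing notes, Cell Ranger 3.0.2, Seurat 3.0.0 and mm10 were used, but the sources used here do not give their roles. Per the file headers, the deposited score of a gene in a cell is an sctransform-corrected count, which the authors had brought to a common depth, so no count model was used. The deposited table also gives the raw UMI count and the percent of mitochondrial UMIs of each cell, which described depth and chose cells for alternatives. The cells deposited had at least 15006 UMIs and at most 15.2% mitochondrial UMIs. No doublet caller was run here, and how the authors treated doublets is not given in the sources used here. Cluster numbers are the authors' deposited ones, and cluster 6 was not tested. Libraries are named by index and genotype only and were used without replicate numbers. Their correlations over genes were 0.981 to 0.999, and none was a copy.

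Corrected counts were summed per library, or per library and cluster, and scaled to ppm. The test was limma 3.58.1 (R 4.3.3), two-sided with a trended prior variance, on log2(ppm + 1), which understates changes of low genes. It covered genes averaging 5 ppm or more, all 28 members among them, with p-values adjusted by Benjamini-Hochberg over all of them at 0.05. The members and gene lists were chosen with earlier results of these data known. Named are all members, up to 4 called genes of each other list by size of difference, and the 10 genes most like the members over cells, except some that are not reported here. Scripts were tested on simulated data. Alternatives covered scaling (TMM from edgeR 4.0.16), minimum level, pseudocount, cell subsets, library weights and leaving out each library.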

Additional observations from a re-analysis of the deposited data

Results flagged for a closer look

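In 13 cases the genotype difference of a member (Cblb-/- minus WT, log2) differed between a cluster and the other cells of the same libraries, by a limma test of that difference over all genes. Cluster minus other cells, it was in cluster 0 -0.14 for Pmvk (adjusted p 0.0140), -0.13 for Fdft1 (0.0470), -0.15 for Cyp51 (0.0221), -0.19 for Msmo1 (0.0037) and -0.18 for Nsdhl (0.0345). In cluster 1 it was 0.18 for Cyp51 (0.0142) and 0.21 for Dhcr7 (0.0475), Dhcr7 having -0.50 in cluster 1 and -0.70 in other cells. In cluster 2 it was -0.18 for Hmgcs1 (0.0351), -0.24 for Idi1 (0.0122) and -0.25 for Elovl6 (0.0360). In cluster 4 it was -0.26 for Pmvk (0.0199), -0.28 for Cyp51 (0.0156) and -0.22 for Scd2 (0.0091). Fdft1 had -0.06 in cluster 0 and 0.07 in other cells, and Idi1 -0.22 in cluster 2 and 0.02 in other cells. Clusters 0 and 1 hold most cells, so each is most of what the other is set against.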

How the results depend on the processing

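Dhcr7 and Ebp were called lower under every alternative that tested them (Dhcr7 falls under a minimum of 20 ppm), and no called member changed direction. Leaving out 1 library gave 2 to 6 members lower and 0 to 2 higher, and library quality weights gave 1 higher (Hsd17b7). Over all tested genes the share called lower ran from 4.59% without C to 16.4% without E. The share called higher ran from 4.60% without C to 20.6% without E, and was 16.6% with quality weights. Within clusters the calls lower ran from 17 to 47 and higher from 0 to 5 without 1 library, with 1 higher under TMM. For differences between a cluster and other cells, 11 were more negative, against 5 under TMM, 2 at matched depth and 2 to 14 without 1 library; 2 were less negative, against 1 under TMM, 1 at matched depth, 1 at a minimum of 1 ppm and 0 to 7 without 1 library. Shares without overlap were 5 to 9 lower and 0 to 7 higher without 1 library, where fewer libraries make overlap less likely. How many of all tested genes passed was not counted for the alternatives within clusters, between a cluster and other cells, or for shares of cells. The cause was not tested.

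The differences of some members not called, those named here, crossed 0. With library quality weights they were 0.068 for Hmgcs1, 0.051 for Idi1, 0.032 for Fdps, 0.013 for Lss, 0.011 for Scap, 0.012 for Srebf2, 0.070 for Scd2 and 0.10 for Elovl6. With the mean of logs over cells they were 0.015 for Hmgcs1 and 0.011 for Fdps. In cells below the median for cell cycle genes they were -0.0053 for Mvk and -0.025 for Srebf1. In cells under the median mitochondrial share Idi1 was 0.011. With equal weight per cluster they were -0.032 for Fdft1 and -0.050 for Srebf1. At matched depth Srebf1 was -0.043. Under median-of-ratios scaling Srebf1 was -0.0057. Without 1 library the ranges were -0.18 to 0.092 for Hmgcs1, -0.040 to 0.10 for Mvk, -0.089 to 0.042 for Idi1, -0.11 to 0.058 for Fdps, -0.0040 to 0.16 for Fdft1, -0.015 to 0.22 for Sqle, -0.25 to 0.062 for Lss, -0.23 to 0.039 for Acat2, -0.10 to 0.036 for Scap, -0.10 to 0.12 for Srebf1, -0.079 to 0.042 for Srebf2, -0.12 to 0.080 for Scd2, -0.25 to 0.20 for Elovl6, -0.051 to 0.15 for Acly and -0.11 to 0.013 for Stard4. No paired analysis was possible because the libraries carry no replicate numbers. With 3 libraries a genotype, small differences may have been missed.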
